A study of Homo sapiens with 6 samples.

Results

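The levels of 47 genes of the type I interferon response were examined in 6 RNA-seq libraries of SUM159, an established triple-negative human breast cancer line. The genes were taken from a written list of well-known interferon-stimulated genes and were found in the count table by the Ensembl identifier of each symbol. All 47 were among the 58336 genes of the table, and 45 were among the 15673 genes that passed the filter on low counts. OAS1, with 2 or 3 counts in every library, and CMPK2, with 2 counts in ITGB4-high cells and 0 in the other 5 libraries, did not pass.

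The labels divide SUM159 cells by their ITGB4 level, ITGB4 being the beta-4 integrin subunit that pairs with alpha-6 to bind laminin, and its title asks how inflammation changes the epithelial and mesenchymal state of dormant cancer cells. The LM2 lung group (n = 2, clones 1 and 3) held ITGB4-low cells that went into mouse lungs through the tail vein together with LM2 cells, which were selected from the breast cancer line MDA-MB-231 for growth in the lung. The bleomycin lung group (n = 1, clone 1) held ITGB4-low cells from lungs of mice that received bleomycin, a drug that injures the lung, through the trachea. In both lung groups the dissociated lung was kept in a dish overnight, and cells carrying the red marker tdTomato were sorted on the next day. The ITGB4-high group (n = 1) and the ITGB4-low control group (n = 2, clones 1 and 3) were grown in dishes. Lung passage, dissociation, overnight culture and sorting therefore go with the LM2 and bleomycin treatments, and these cannot be told apart here. The treatment description names clone 1 alone, so the LM2 library of clone 3 rests on its title and the design text. The labels do not say how many mice were pooled or whether the libraries of a group came from separate experiments, so p-values measure only the spread between these libraries. Whether RNA of LM2 cells or reads of mouse origin entered the lung libraries was not tested.

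Type I interferons bind the receptor pair IFNAR1 and IFNAR2, and the kinases JAK1 and TYK2 then activate STAT proteins, STAT2 among them. With IRF9 these form the complex ISGF3, which binds the interferon-stimulated response element, or ISRE, in the promoters of many genes. The products sense viral RNA, stop translation, block viral entry, modify proteins with ISG15 or tune the pathway itself, and many are also made at a lower level without added interferon.

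Libraries held 13607953 to 22222121 counts, and levels are given in CPM, counts per 1e6 scaled with TMM factors. A count of 0 allows a level of up to 0.138 to 0.232 CPM, taken as 3 counts, which covers counting error only. ITGB4 itself stood at 471, 442 and 306 CPM in the lung libraries and at 384 CPM in ITGB4-high cells, against 25.9 and 24.6 CPM in control cells. The 2 LM2 libraries stood further apart from each other than the controls did, and the chi-square over genes, divided by its degrees of freedom, was 70.8 in the LM2 pair and 7.81 in the control pair. Vimentin, CD44, AXL, CAV1 and EGFR, high in this mesenchymal line, summed to 4705 to 5069 CPM in lung libraries. Their sum was 5117 CPM in ITGB4-high cells and 5460 to 5781 CPM in control cells. ESR1, PGR, ERBB3, GATA3 and FOXA1 summed to 9.49 to 19.2 CPM in lung libraries. Their sum was 7.66 CPM in ITGB4-high cells and 16.0 to 17.8 CPM in control cells, with only PGR at 0 in every library. The summed CPM of 10 myeloid markers was 2.05 to 8.65 in lung libraries, 2.04 in ITGB4-high cells and 4.87 to 5.54 in control cells, with AIF1 at 0 throughout. Single markers in these sums differed in direction. PTPRC, the pan-leukocyte antigen CD45, had 2.32 and 0.256 CPM in LM2 lung clones 1 and 3 and 2.69 CPM in the bleomycin library, with 0.0730 CPM in ITGB4-high cells and 0.208 and 0.184 CPM in the controls. CD68 had 1.60 CPM in the bleomycin library and 0.416 to 0.511 CPM in the other 5. CD163 ran the other way, at 0.310 to 1.79 CPM in lung libraries, 0 in ITGB4-high cells, and 3.12 and 3.59 CPM in the controls. The summed CPM of 10 lymphocyte and plasmacytoid dendritic cell markers was 0.155 to 0.449 in lung libraries, 0.219 in ITGB4-high cells and 0.0693 to 0.23 in control cells. In that list 5 markers, CD3E among them, were at 0 in every library. The sum of 6 endothelial markers was 2.56 to 11.3 CPM in lung libraries, 6.13 CPM in ITGB4-high cells and 72.9 to 107.8 CPM in control cells, carried by KDR, with CDH5 at 0. PECAM1 had 2.32 and 3.64 CPM in LM2 lung clones 1 and 3, 9.42 CPM in the bleomycin library and 3.07 CPM in ITGB4-high cells, against 1.80 and 2.02 CPM in the controls. The part of these markers in the results was not tested.

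Promoter sequence was available for 39 of the 47 genes, as the RefSeq window of 250 bases before to 50 bases after the gene's start on GRCh38.p14. Missing were OAS2, OASL, IFIT2, IFITM2, MX2, IRF7, USP18 and TRIM22. The ISRE core was searched on both strands as GAAA, any 2 bases, GAAA, with overlapping matches counted, and it was found in 26 of the 39 windows (66.7%), against 1255 of 35116 RefSeq promoter windows (3.57%). The gamma-activated site, bound by STAT dimers and spelled here as TTC, any 3 bases, GAA, was found in 11 of the 39 (28.2%), against 2689 of 35116 (7.66%). Both motifs stood in 7 of the 39 (17.9%), against 154 of 35116 (0.439%). A match is a description of the letters and not a bound site. The shares come from sequence and a list of known interferon-stimulated genes, so they say nothing about these libraries. For each of the 39 genes the first listed window was searched, against all listed windows for the background. The 8 windows below are shown because their genes carry the patterns described next: genes higher in all lung libraries, genes high in only some of them, a gene lower in all of them, and XAF1. Each is printed 5′ to 3′ on the strand of its gene with the ISRE matches in capitals.
IFI27: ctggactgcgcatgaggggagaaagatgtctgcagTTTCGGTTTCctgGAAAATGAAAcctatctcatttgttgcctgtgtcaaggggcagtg
IFIH1: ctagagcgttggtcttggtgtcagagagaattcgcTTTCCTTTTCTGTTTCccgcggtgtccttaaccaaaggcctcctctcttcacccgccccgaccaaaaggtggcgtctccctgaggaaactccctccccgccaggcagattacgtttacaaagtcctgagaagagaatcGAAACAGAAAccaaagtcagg
EPSTI1: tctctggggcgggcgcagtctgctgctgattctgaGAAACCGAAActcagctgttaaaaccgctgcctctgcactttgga
HERC5: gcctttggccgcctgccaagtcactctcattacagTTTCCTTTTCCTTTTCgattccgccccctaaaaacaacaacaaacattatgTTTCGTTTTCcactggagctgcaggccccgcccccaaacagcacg
IFIT1: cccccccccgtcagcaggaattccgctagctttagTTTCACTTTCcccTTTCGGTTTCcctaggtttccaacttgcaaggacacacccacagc
IFIT3: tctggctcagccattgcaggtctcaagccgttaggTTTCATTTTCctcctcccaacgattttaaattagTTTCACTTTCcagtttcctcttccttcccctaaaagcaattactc
IFI6: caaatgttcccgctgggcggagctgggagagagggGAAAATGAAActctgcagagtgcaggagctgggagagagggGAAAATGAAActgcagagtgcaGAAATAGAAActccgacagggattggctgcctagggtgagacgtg
XAF1: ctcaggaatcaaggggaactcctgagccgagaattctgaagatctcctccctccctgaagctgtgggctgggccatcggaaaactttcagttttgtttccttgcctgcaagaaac
On GRCh38.p14 these lie at chr14:94110593-94110685 (plus strand) for IFI27, chr2:162318685-162318878 (minus) for IFIH1, chr13:42992247-42992326 (minus) for EPSTI1, chr4:88456959-88457089 (plus) for HERC5, chr10:89392472-89392564 (plus) for IFIT1, chr10:89327806-89327919 (plus) for IFIT3, chr1:27672241-27672383 (minus) for IFI6 and chr17:6755931-6756045 (plus) for XAF1. IFI6 and HERC5 each held 3 matches, and the pair of matches farthest from the start in HERC5 overlap. For XAF1 the GENCODE start lies upstream of the RefSeq start used here. The XAF1 window held no match to either motif, as was also the case for STAT2, RSAD2, CMPK2, HERC6, PARP9, SAMD9L, SP110 and UBE2L6.

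The first question was which interferon response genes differed between ITGB4-low cells recovered from lungs and ITGB4-low cells in culture. XAF1 and OAS2 were higher in all 3 lung libraries and passed the test over all genes, while the other 43 did not pass and many differed in direction between libraries. XAF1, which encodes a partner of the apoptosis inhibitor XIAP, had 57.1 and 47.8 CPM in LM2 lung clones 1 and 3 and 90.3 CPM in the bleomycin library, against 4.22 and 2.80 CPM in control clones 1 and 3. Its mean was 65.1 ± 22.4 CPM in lung cells (SD, n = 3) and 3.51 ± 1.00 CPM in control cells (SD, n = 2), so every lung library lay far above both controls. On hg38 the gene lies at chr17:6755447-6775647 and OAS2 at chr12:112978395-113011723, both on the plus strand, per GENCODE 29. Over control the fitted log2 fold change was 4.22 (SE 0.39, 18.7-fold) with an adjusted p of 0.0235 in edgeR's quasi-likelihood test. OAS2 makes 2′-5′-linked oligoadenylates that switch on the RNA-cutting enzyme RNase L, and it had 19.3 and 22.1 CPM in LM2 lung clones 1 and 3 and 31.7 CPM in the bleomycin library, against 2.49 and 1.84 CPM in control clones 1 and 3. It averaged 24.4 ± 6.53 CPM in lung cells (SD, n = 3) and 2.17 ± 0.463 CPM in control cells (SD, n = 2). Its log2 fold change was 3.50 (SE 0.32, 11.3-fold, adjusted p = 0.0236 in edgeR's test), again with no overlap between the groups. These were the only 2 of the 45 genes called higher (background over all 15673 genes 0.268%), and 0 were called lower (background 0.23%). At an unadjusted p under 0.05 in the same test, 14 of the 45 were higher (background 9.26%) and 6 were lower (background 11.3%). These libraries are bulk RNA, in which a higher level in every cell and a larger share of expressing cells cannot be told apart. Both calls were lost without control clone 1 (adjusted p = 0.265 for XAF1 and 0.279 for OAS2), without control clone 3 (0.337 and 0.364) and without the bleomycin library (0.0571 and 0.0778), with log2 fold changes that stayed at 3.26 or more. Over all 10 alternatives the adjusted p ran from 4.23e-58 to 0.337 for XAF1 and from 2.53e-27 to 0.364 for OAS2. Without LM2 clone 1 edgeR called 10 of the 45 (2.5% of all genes), and without LM2 clone 3 it called 6 (6.55%). DESeq2 called 13 (8.15%).

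With each trigger taken alone, no interferon response gene passed edgeR's threshold, and XAF1 and OAS2 came closest in both. For LM2 lung against control the count was 0 of 45 in either direction (background 0.0319% higher and 0% lower). DESeq2 called 8 (4.13% of all genes). At an unadjusted p under 0.05, 10 were higher (7.29% of all genes) and 5 lower (8.33%). XAF1 had a log2 fold change of 3.91 (SE 0.27) with an adjusted p of 0.0505 in edgeR, and OAS2 of 3.26 (SE 0.25) with an adjusted p of 0.0627. With the clone as a replicate block both passed, at adjusted p = 0.0169 and 0.0431. Over the alternatives the adjusted p ran from 1.82e-48 to 0.566 for XAF1 and from 6.41e-22 to 0.793 for OAS2. For bleomycin lung against control, 1 library against 2, DESeq2 called 4 of 45 (3.7% of all genes). The edgeR count was again 0 (background 0.0255% higher and 0% lower). Here 14 were higher at an unadjusted p under 0.05 (6.65% of all genes) and 4 lower (7.8%). The log2 fold change of XAF1 was 4.70 (SE 0.29, adjusted p = 0.0602 in edgeR, 0.0302 with the replicate block), and that of OAS2 was 3.88 (SE 0.28, adjusted p = 0.0649, 0.0722 with the block). Over the alternatives these ran from 5.60e-58 to 0.629 for XAF1 and from 1.53e-25 to 0.723 for OAS2. These comparisons share their control libraries. The bleomycin library set against the LM2 pair gave 0 calls in either direction (background 0% and 0%), also 0 in DESeq2, with adjusted p between 0.926 and 0.998 in edgeR. At an unadjusted p under 0.05 IFI27, IFI44L, IFITM1 and XAF1 were higher (2.04% of all genes) and IRF1 was lower (2.58%).

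The next description sets each lung library against the control of its own clone, as a log2 ratio of CPM with a prior count of 2. It has no test, and the ratios of LM2 clone 1 and bleomycin clone 1 share control clone 1. Over the 45 genes the LM2 clone 1 library had a median log2 ratio of -0.17, the LM2 clone 3 library of 0.19 and the bleomycin library of 0.43, against -0.04, -0.02 and -0.02 over all genes tested. Ratios above 0 were seen for 20 (46.9% of all genes), 28 (48.0%) and 32 (48.1%) of the 45 in the same order. A log2 ratio of 1 or more was reached by 6 genes in LM2 clone 1 (all genes 8.98%), by 13 in LM2 clone 3 (5.65%) and by 14 in bleomycin clone 1 (7.79%). A log2 ratio of -1 or less was reached by 6 (12.6%), 2 (5.7%) and 2 (8.15%) in the same order. In all 3 libraries 18 of the 45 were above their own control (23.9% of all genes) and 10 were below it (29.1%). The 3 genes with a ratio of 1 or more in every lung library were XAF1, OAS2 and IFI27 (1.99% of all genes), and the 1 gene at -1 or less in every one was RSAD2 (2.92%).

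**Figure D1:**
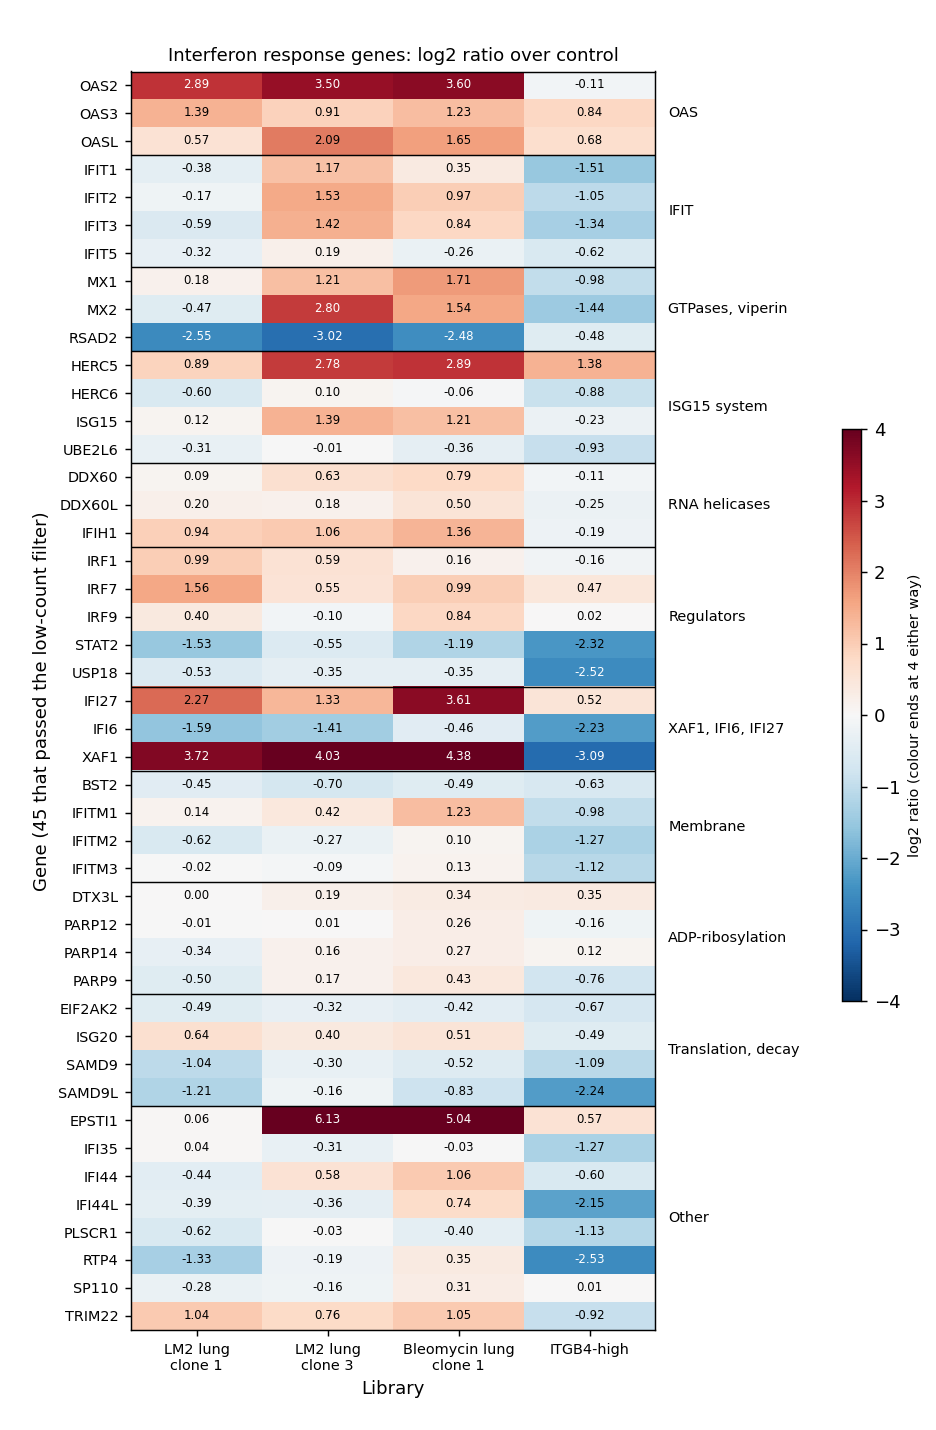
Log2 ratio of TMM-normalised CPM (prior count 2) of the 45 genes that passed the filter, rows grouped by role. The first 3 columns are lung libraries over the control of their own clone, and the last is ITGB4-high over the mean of both controls. XAF1 is the row with the strongest opposite values, from 3.72 to 4.38 in lung libraries and -3.09 in ITGB4-high cells.

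Among the RNA-sensing enzymes, the 3 OAS genes that could be tested were all above control in every lung library. OAS3, a synthase like OAS2, had 30.6 and 30.3 CPM in LM2 lung clones 1 and 3, 27.4 CPM in the bleomycin library, 24.6 CPM in ITGB4-high cells, and 11.6 and 16.1 CPM in control clones 1 and 3. It did not pass (log2 fold change 1.08 over control, adjusted p = 0.0751 in edgeR), although neither the lung libraries nor ITGB4-high overlapped the controls. OASL, a relative without synthase activity that supports RIG-I, had 10.5 and 28.1 CPM in LM2 lung clones 1 and 3, 22.2 CPM in the bleomycin library, 10.9 CPM in ITGB4-high cells, and 6.995 and 6.53 CPM in control clones 1 and 3. Its LM2 clone 1 value lay below the ITGB4-high value, and its fold over control missed the threshold (log2 1.59, adjusted p = 0.144 in edgeR). The helicases were also above control in every lung library, 3 of 3, except that DDX60 in LM2 clone 1 was below it when scaled by library totals alone. IFIH1, the sensor MDA5 that detects long double-stranded RNA, had 21.5 and 28.4 CPM in LM2 lung clones 1 and 3, 28.9 CPM in the bleomycin library, 10.7 CPM in ITGB4-high cells, and 11.2 and 13.6 CPM in control clones 1 and 3. Its promoter carries ISRE matches at 159, 153 and 21 bases before the start, and its log2 fold change over control was 1.09 (adjusted p = 0.0814 in edgeR). DDX60, a helicase linked to RIG-I signalling, ranged from 43.9 to 71.0 CPM in lung libraries, with 37.7 CPM in ITGB4-high cells, and 41.1 and 40.1 CPM in control clones 1 and 3.

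IFI27, IFI6 and XAF1 encode proteins tied to mitochondria or cell death. IFI27 and XAF1 were above their own control in every lung library, and IFI6 was below it. IFI27, a small mitochondrial and nuclear-envelope protein, had 6.51 and 4.92 CPM in LM2 lung clones 1 and 3, 16.7 CPM in the bleomycin library, 2.26 CPM in ITGB4-high cells, and 1.25 and 1.88 CPM in control clones 1 and 3. All lung libraries stood above the other 3 libraries, with the bleomycin library at the top, and the difference did not pass (log2 2.56, SE 0.63, adjusted p = 0.127 in edgeR). IFI6, which keeps viruses from building replication sites at the endoplasmic reticulum, had 2.87 and 5.18 CPM in LM2 lung clones 1 and 3, 6.41 CPM in the bleomycin library, 2.26 CPM in ITGB4-high cells, and 8.87 and 13.9 CPM in control clones 1 and 3. Both controls were above every other library for this gene. Its promoter holds 3 ISRE matches and that of IFI27 holds 2. Its log2 fold change in lung cells over control was -1.24 with an adjusted p of 0.170 in edgeR.

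**Figure D2:**
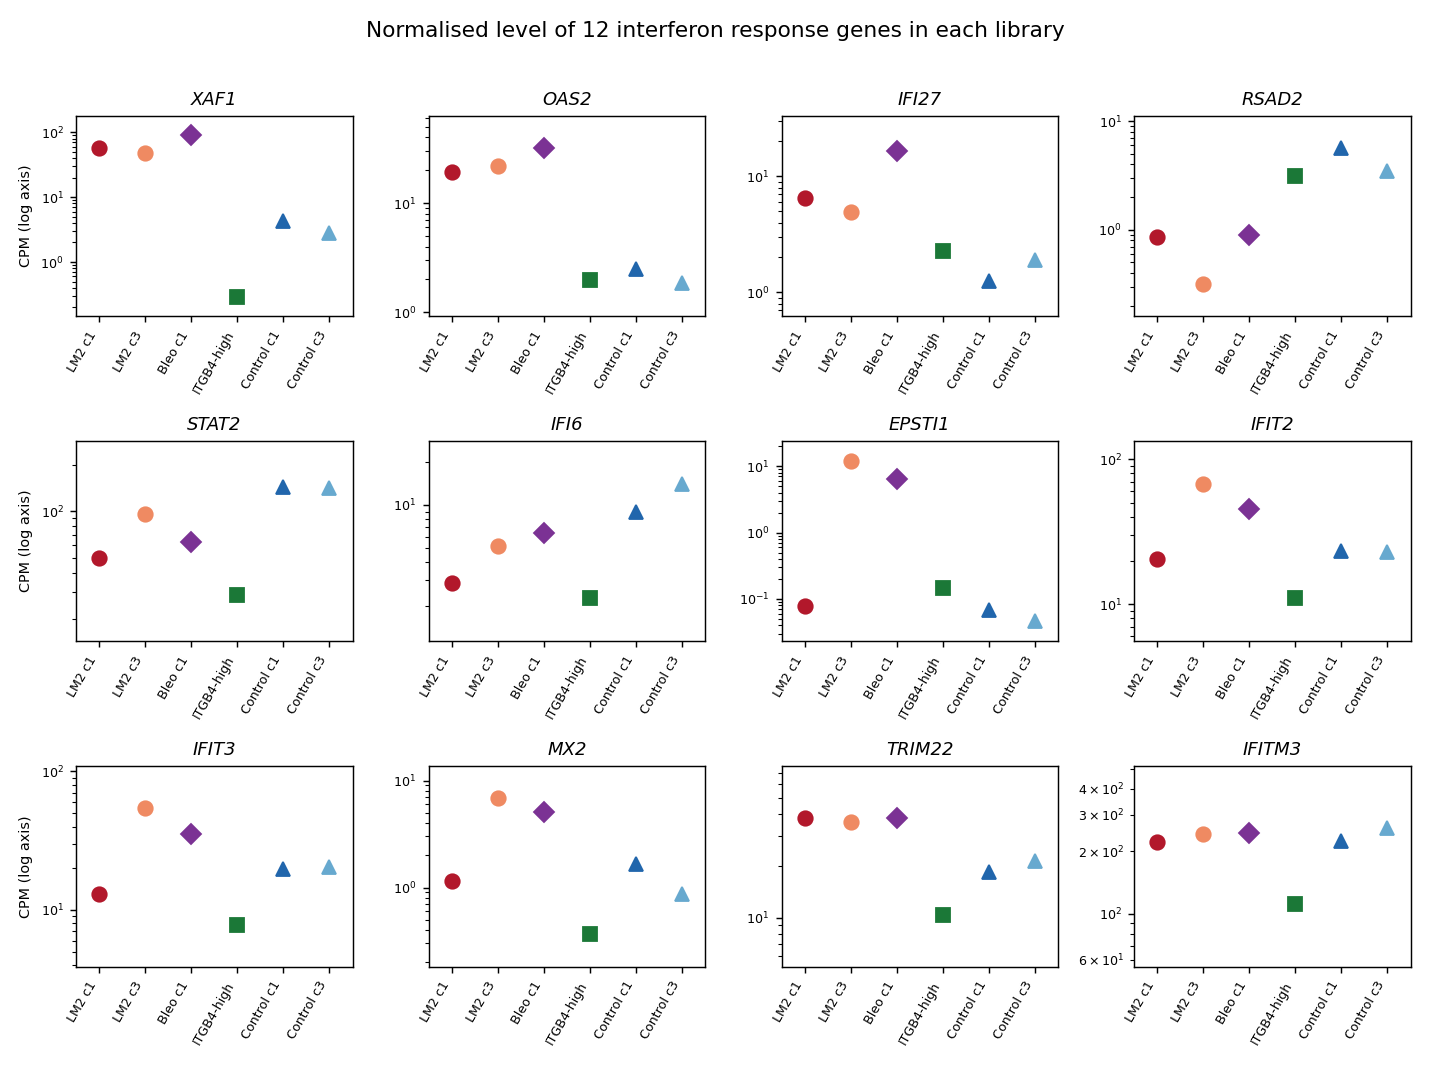
Level of 12 genes in each library, in CPM on a log axis that differs between panels. Each point is 1 library, with lung libraries on the left, ITGB4-high next and controls on the right. XAF1, OAS2, IFI27 and TRIM22 have all lung points above the other 3, and RSAD2 has all lung points below them. EPSTI1 has only LM2 clone 3 and bleomycin clone 1 above the rest.

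RSAD2 had the lowest own-clone ratio of the 45 in each lung library. It encodes viperin, which makes a nucleotide that stops viral RNA synthesis, and it had 0.852 and 0.320 CPM in LM2 lung clones 1 and 3 and 0.897 CPM in the bleomycin library, with 3.14 CPM in ITGB4-high cells and 5.61 and 3.49 CPM in control clones 1 and 3. The lung libraries rest on 11, 5 and 14 counts, against 43 in ITGB4-high cells and 81 and 76 in control cells, and none reached the level of any cultured library. The log2 fold change over control was -2.71 (SE 0.48), which did not pass (adjusted p = 0.0751 in edgeR). CMPK2, its neighbour on chromosome 2 and a mitochondrial nucleotide kinase, was at 0 counts in every lung and control library. The GTPases of the same role group did not follow RSAD2. MX1, which traps viral nucleocapsids in the cytoplasm, had 4.26 and 9.40 CPM in LM2 lung clones 1 and 3, 12.6 CPM in the bleomycin library, 1.90 CPM in ITGB4-high cells, and 3.74 and 3.999 CPM in control clones 1 and 3, so that LM2 clone 1 lay near the controls.

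The regulators of the pathway were split. STAT2, the STAT protein specific to the interferon complex ISGF3, had 49.9 and 96.4 CPM in LM2 lung clones 1 and 3, 62.8 CPM in the bleomycin library, 28.5 CPM in ITGB4-high cells, and 144 and 141 CPM in control clones 1 and 3. Controls were above all other libraries and ITGB4-high was the lowest. In lung cells over control the log2 fold change was -1.03 (adjusted p = 0.139 in edgeR), and in ITGB4-high over control it was -2.32 (adjusted p = 0.0865). IRF7, the factor that drives interferon alpha genes, had 5.97 and 2.68 CPM in LM2 lung clones 1 and 3 and 3.97 CPM in the bleomycin library, against 1.94 and 1.79 CPM in control clones 1 and 3. IRF1, which binds related elements downstream of several cytokines, ranged from 35 to 62.5 CPM in lung libraries against 31.0 to 31.3 CPM in controls. Both IRF genes were above their own control in every lung library without passing edgeR's test (adjusted p = 0.201 and 0.239). IRF9, the DNA-binding part of ISGF3, was low in every library, between 0.55 and 1.10 CPM. USP18, the protease that removes ISG15 and dampens the receptor, had 0.775 and 1.34 CPM in LM2 lung clones 1 and 3, 0.897 CPM in the bleomycin library, 0.146 CPM in ITGB4-high cells, and 1.18 and 1.75 CPM in control clones 1 and 3. The ITGB4-high value rests on 2 counts, reads shared with the near-identical USP41 may be split, and the lung values overlapped the controls.

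Genes of the ISG15 system and of ADP-ribosylation gave no call, and several differed between libraries of the lung class. ISG15, the ubiquitin-like modifier, had 2.94 and 6.71 CPM in LM2 lung clones 1 and 3, 6.41 CPM in the bleomycin library, 2.19 CPM in ITGB4-high cells, and 2.701 and 2.48 CPM in control clones 1 and 3. HERC5, the ligase that attaches it, had 1.01 and 4.86 CPM in LM2 lung clones 1 and 3, 4.42 CPM in the bleomycin library, 1.61 CPM in ITGB4-high cells, and 0.485 and 0.598 CPM in control clones 1 and 3. HERC5 was thus above both controls in every other library, with a log2 fold change of 2.64 in lung cells (SE 0.75, adjusted p = 0.152 in edgeR), and the controls held 7 and 13 counts. PARP9 and DTX3L form a complex that modifies histones and viral proteins, and they neighbour each other on chromosome 3. PARP9 had 31.8 and 58.1 CPM in LM2 lung clones 1 and 3, 60.8 CPM in the bleomycin library, 28.5 CPM in ITGB4-high cells, and 45.02 and 51.8 CPM in control clones 1 and 3. DTX3L had 114 and 136 CPM in LM2 lung clones 1 and 3, 144 CPM in the bleomycin library, 149 CPM in ITGB4-high cells, and 114 and 119.6 CPM in control clones 1 and 3. PARP14, a large mono-ADP-ribosyl transferase, had 105 and 146 CPM in LM2 lung clones 1 and 3, 161 CPM in the bleomycin library, 143 CPM in ITGB4-high cells, and 133 and 130.1 CPM in control clones 1 and 3. None of the 3 separated lung libraries from controls, and for ITGB4-high over control the median ratio of the tested genes within 5 Mb of them was 0.58 to 0.61 on the log2 scale.

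Genes of membrane restriction and translation included several of the most abundant of the set. IFITM1 and ISG20, members of these groups, were above their own control in all 3 lung libraries. The own-clone log2 ratios of IFITM1 were 0.14 (LM2 clone 1), 0.42 (LM2 clone 3) and 1.23 (bleomycin clone 1), and those of ISG20, an exonuclease that degrades RNA, were 0.64, 0.40 and 0.51. IFITM3, which blocks fusion of viruses in endosomes, had 222 and 242 CPM in LM2 lung clones 1 and 3, 245 CPM in the bleomycin library, 111 CPM in ITGB4-high cells, and 225 and 258 CPM in control clones 1 and 3. IFITM2, its close paralog, had 34.2 and 54.8 CPM in LM2 lung clones 1 and 3, 56.3 CPM in the bleomycin library, 24.3 CPM in ITGB4-high cells, and 52.4 and 66.3 CPM in control clones 1 and 3. Per kilobase of exon IFITM3 was the most abundant of the 47 at 161 CPM per kilobase (mean of 6 libraries), and the sequence shared by the IFITM genes makes the split of reads among them uncertain. Lung and control values overlapped for both. BST2, or tetherin, which holds budding virus at the cell surface, had 68.0 and 68.2 CPM in LM2 lung clones 1 and 3, 66.3 CPM in the bleomycin library, 65.5 CPM in ITGB4-high cells, and 93.2 and 111 CPM in control clones 1 and 3. Its lung values lay within a narrow range below both controls and next to ITGB4-high (log2 -0.59 in lung cells over control, adjusted p = 0.0943 in edgeR). EIF2AK2 encodes PKR, the kinase that halts translation on double-stranded RNA, and had 135 and 150.3 CPM in LM2 lung clones 1 and 3, 141 CPM in the bleomycin library, 118 CPM in ITGB4-high cells, and 189 and 188 CPM in control clones 1 and 3. The controls were again the highest, with a lung log2 fold change of -0.41 (adjusted p = 0.149 in edgeR). SAMD9L, a restriction factor for poxviruses, had 11.2 and 19.7 CPM in LM2 lung clones 1 and 3, 14.6 CPM in the bleomycin library, 4.96 CPM in ITGB4-high cells, and 26.0 and 22.1 CPM in control clones 1 and 3. Its relative SAMD9 was also below its own control in each lung library. PLSCR1, a membrane scramblase, had 64.9 and 89.7 CPM in LM2 lung clones 1 and 3, 75.6 CPM in the bleomycin library, 43.6 CPM in ITGB4-high cells, and 99.7 and 91.7 CPM in control clones 1 and 3, and LM2 clone 3 lay close to the controls.

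TRIM22, an antiviral ubiquitin ligase, was next to the threshold after XAF1 and OAS2. It had 37.9 and 36.1 CPM in LM2 lung clones 1 and 3, 38.3 CPM in the bleomycin library, 10.4 CPM in ITGB4-high cells, and 18.4 and 21.2 CPM in control clones 1 and 3. The 3 lung values were almost equal and all above the controls, with a log2 fold change of 0.91 (SE 0.14) and an adjusted p of 0.0631 in edgeR. TRIM22, IRF7 and the IFITM genes lie on the short arm of chromosome 11, where the median log2 ratio of tested genes within 5 Mb was 0.20 to 0.28 in LM2 clone 1, -0.15 to -0.11 in LM2 clone 3 and 0.52 to 0.55 in bleomycin clone 1. The part of this regional shift in the ratios of these genes was not tested. The own-clone log2 ratios of TRIM22 were 1.04 (LM2 clone 1), 0.76 (LM2 clone 3) and 1.05 (bleomycin clone 1).

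The LM2 libraries of the clones differed in how many of these genes were above control. The log2 ratio over the own control was higher in clone 3 than in clone 1 for 33 of the 45 genes (51.7% of all genes), and by 1 or more for 12 (11.5%). It was lower by 1 or more for 1, IRF7 (7.68%). With 1 LM2 library per clone this difference has no replicate check. EPSTI1, named for its induction in breast epithelium by stromal cells, had 1 count in LM2 clone 1 and 188 in LM2 clone 3, with 99 in bleomycin clone 1, 2 in ITGB4-high cells and 1 in each control. The ratio of EPSTI1 CPM over the own control was 261 in LM2 clone 3 (95% exact counting interval 46.4 to 10381) and 91.6 in bleomycin clone 1 (16.1 to 3655), against 1.12 in LM2 clone 1 (0.0143 to 87.8). With LM2, EPSTI1 was thus at 12.02 CPM in clone 3 and near the detection limit in clone 1. MX2, which blocks nuclear entry of HIV, had 1.16 and 6.84 CPM in LM2 lung clones 1 and 3, 5.06 CPM in the bleomycin library, 0.365 CPM in ITGB4-high cells, and 1.66 and 0.873 CPM in control clones 1 and 3. LM2 clone 1 lay between the controls while LM2 clone 3 and bleomycin clone 1 lay above them.

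The IFIT genes, whose products bind viral RNA ends and hinder translation, showed the same contrast as a family. All 4 had a higher LM2 ratio in clone 3 than in clone 1, and all 4 were below control in LM2 clone 1 and above it in LM2 clone 3. The 4 genes neighbour each other on chromosome 10. Other tested genes within 5 Mb of them had median log2 ratios of -0.22 to -0.21 in LM2 clone 1. In LM2 clone 3 these medians were 0.01 to 0.05, and the part of this shift in the IFIT ratios was not tested. IFIT2 had 20.5 and 66.9 CPM in LM2 lung clones 1 and 3, 45.6 CPM in the bleomycin library, 11.1 CPM in ITGB4-high cells, and 23.1 and 23.1 CPM in control clones 1 and 3. IFIT3 had 13.0 and 54.8 CPM in LM2 lung clones 1 and 3, 35.2 CPM in the bleomycin library, 7.81 CPM in ITGB4-high cells, and 19.6 and 20.4 CPM in control clones 1 and 3. For both genes the highest library was LM2 clone 3, followed by bleomycin clone 1, and LM2 clone 1 was below the controls. The own-clone log2 ratios of IFIT1 were -0.38 (LM2 clone 1), 1.17 (LM2 clone 3) and 0.35 (bleomycin clone 1), and those of IFIT5 were -0.32, 0.19 and -0.26. The windows of IFIT1 and IFIT3 printed above each hold a pair of ISRE matches, between 103 and 156 bases before the start. LM2 clone 3 and bleomycin clone 1 share neither clone nor trigger, and 10 genes reached a log2 ratio of 1 or more in both (2.85% of all genes). These were EPSTI1, HERC5, IFI27, IFIH1, ISG15, MX1, MX2, OAS2, OASL and XAF1. Without LM2 clone 3, the LM2 log2 fold change over control was -0.61 for IFIT3 and -0.45 for IFI44. In that fit the 1 remaining LM2 library is assumed to vary like the other groups.

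**Figure D3:**
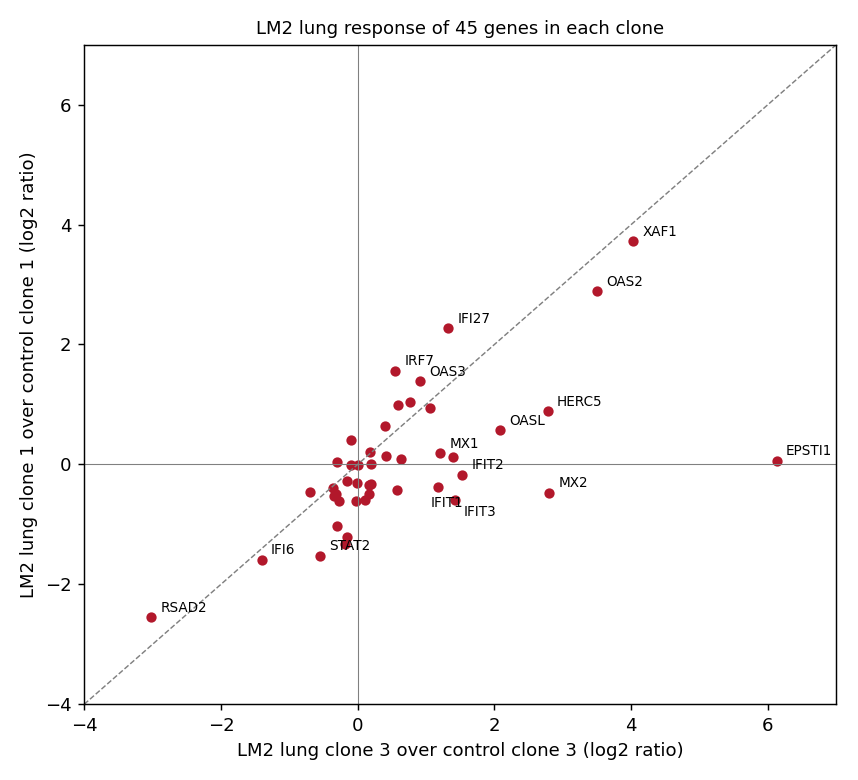
Log2 ratio of each LM2 lung library over the control of its own clone, clone 3 on the horizontal and clone 1 on the vertical axis, with 1 point for each of the 45 genes and a dashed line where the ratios are equal. Most points, 33 of 45, lie below the line, EPSTI1 farthest at 6.13 in clone 3 and 0.06 in clone 1, while XAF1, OAS2 and RSAD2 lie near it.

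The other contrast was with ITGB4-high cells, which were grown in dishes. They had lower levels of most of the set than control cells, with 34 of the 45 genes below both controls (45.2% of all genes) and 8 above both (43.6%). The median log2 ratio over the control mean was -0.67 over the 45 and -0.01 over all genes tested. A log2 ratio of -1 or less was reached by 16 (14.3%) and of 1 or more by 1, HERC5 (8%). With 1 ITGB4-high library against 2 controls, DESeq2 called 9 lower (1029 of all 15673 genes). In edgeR 0 were called higher (background 0.0574%) and 0 lower (background 0.0319%). At an unadjusted p under 0.05 edgeR had 1 higher (10.4%) and 16 lower (14.2%). IFI44L, a paralog of the microtubule-associated IFI44, had 11.5 CPM in ITGB4-high cells and 47.8 and 56.0 CPM in the controls (log2 -2.17, SE 0.24, adjusted p = 0.0581 in edgeR). RTP4, a Golgi chaperone for receptors, had 0.697 and 2.37 CPM in LM2 lung clones 1 and 3, 2.50 CPM in the bleomycin library, 0.292 CPM in ITGB4-high cells, and 1.94 and 2.71 CPM in control clones 1 and 3. The ITGB4-high value of RTP4 rests on 4 counts, and LM2 clone 1 was also below the other lung libraries. IFITM3 and SAMD9L, with the values given above, had log2 fold changes of -1.12 and -2.27 in ITGB4-high over control (adjusted p = 0.0704 and 0.0871 in edgeR). All 4 IFIT genes, all 4 membrane genes and all 4 genes of the translation and decay group were below both controls, whereas OAS3, OASL, HERC5, IFI27, IRF7, EPSTI1, DTX3L and PARP14 were above both.

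XAF1 stood at opposite ends of the range in the lung libraries and in ITGB4-high cells. It had 0.292 CPM in ITGB4-high cells, from 4 counts, against 4.22 and 2.80 CPM in control clones 1 and 3, from 61 and 61 counts. The log2 fold change over control was -3.54 (SE 0.50, 11.6-fold lower), with an adjusted p of 0.0636 in edgeR and 0.0370 with the replicate block (3.23e-11 to 0.378 over the alternatives). With that block edgeR called 2 of the 45 lower (243 of all 15673 genes), XAF1 and IFI44L, where ITGB4-high was placed midway between the clones. With ITGB4-high coded with clone 1, edgeR called XAF1 alone (adjusted p = 0.0477, 67 of all 15673 genes lower), and IFI44L had 0.0510. For IFI44L the adjusted p ran from 1.21e-11 to 0.420 over the alternatives. The other tested genes within 5 Mb of XAF1 on chromosome 17, 145 in number, had a median of -0.84 on the same scale for ITGB4-high over control, so XAF1 lies in a stretch that was lower as a whole, and the part of that shift in its own value was not tested. In the lung libraries the same neighbours had medians of -0.12, 0.00 and -0.11, while XAF1 had 3.72, 4.03 and 4.38. Set against ITGB4-high, lung cells were higher for XAF1 by 217-fold (log2 7.76, SE 0.73, adjusted p = 0.0409 in edgeR). This was the 1 call among the 45 in that comparison (background 0.0319% higher), with 0 lower (background 0.0766%). DESeq2 called 17 higher (789 of all 15673 genes). At an unadjusted p under 0.05 in edgeR, 23 were higher (10.4%) and 1 was lower, RSAD2 (7.86%). The call was lost with the replicate block (adjusted p = 0.0828), without control clone 1 (0.165), without control clone 3 (0.171) and without the bleomycin library (0.0997), with a range of 9.90e-56 to 0.171 over the alternatives. All 3 lung libraries were above ITGB4-high for 36 of the 45 genes (30.5% of all genes).

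**Figure D4:**
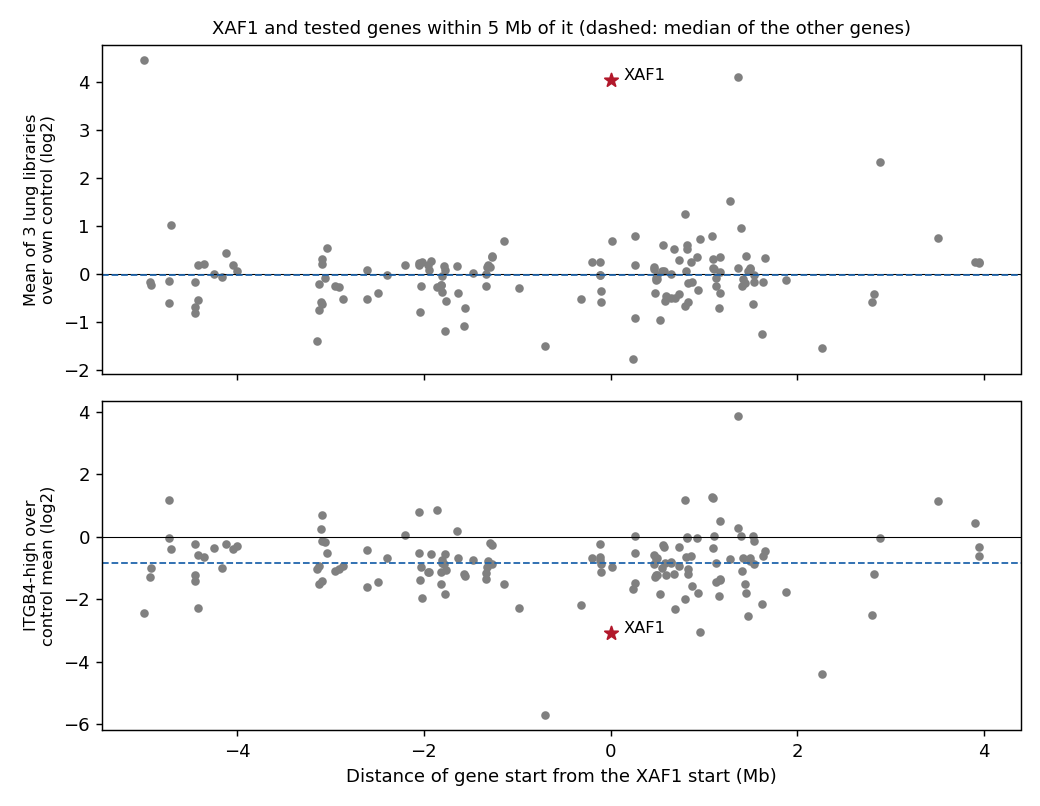
XAF1 (star) and the other 145 tested genes within 5 Mb of its start on chromosome 17, placed by the distance between gene starts. The upper panel gives the mean log2 ratio of the 3 lung libraries over the control of their own clone, and the lower panel the log2 ratio of ITGB4-high over the control mean. The dashed line, the median of the other genes, lies close to 0 for lung libraries and at -0.84 for ITGB4-high.

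The upstream parts of the pathway were measured in the same libraries from lists of ligands, receptors and kinases, sensors, and other interferon-stimulated genes. Of 10 interferon genes, 9, including IFNB1, were at 0 counts in every library, and IFNL1, an interferon lambda, had 2 and 3 counts in LM2 lung clones 1 and 3, 0 in the bleomycin and ITGB4-high libraries, and 0 and 1 in control clones 1 and 3. These counts set limits on the RNA of these cells at harvest and not on interferon made by other cells. IFNAR1 had 88.6 and 81.7 CPM in LM2 lung clones 1 and 3, 93.0 CPM in the bleomycin library, 88.3 CPM in ITGB4-high cells, and 102 and 119 CPM in control clones 1 and 3. IFNAR2 had 11.7 and 12.02 CPM in LM2 lung clones 1 and 3, 16.2 CPM in the bleomycin library, 10.1 CPM in ITGB4-high cells, and 12.5 and 13.1 CPM in control clones 1 and 3. Both receptor chains were thus present in every library. IFNAR1 was highest in the controls, and IFNAR2 overlapped between lung and control cells. JAK1 had 206 and 206 CPM in LM2 lung clones 1 and 3, 175 CPM in the bleomycin library, 239.8 CPM in ITGB4-high cells, and 249 and 233 CPM in control clones 1 and 3. TYK2 had 58.9 and 58.4 CPM in LM2 lung clones 1 and 3, 51.0 CPM in the bleomycin library, 55.2 CPM in ITGB4-high cells, and 49.8 and 48.6 CPM in control clones 1 and 3. TYK2 was lowest in the controls, and JAK1 was lower in the lung libraries than in the cultured ones. Of the 13 receptor, kinase and STAT genes 0 passed edgeR's test in any of the 6 comparisons. In lung libraries 4 of them were above their own control in all 3 (23.9% of all genes) and 4 below (29.1%), shares near those of all genes, and ITGB4-high was below both controls for 9 (45.2%). Of 14 sensor and adaptor genes 0 passed, with 4 above control in all 3 lung libraries (23.9% of all genes) and 3 below (29.1%), again near the shares of all genes. Of 25 other interferon-stimulated genes 0 passed, with 11 above (23.9% of all genes) and 3 below (29.1%), and ITGB4-high was below both controls for 17 (45.2%). Over these 25 the median own-clone log2 ratio was 0.33 (LM2 clone 1), 0.15 (LM2 clone 3) and 0.24 (bleomycin clone 1), and the median of ITGB4-high over control was -0.22.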

How the data were processed

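Per the labels' protocols, RNA was selected with oligo-dT and libraries were prepared with a KAPA mRNA HyperPrep kit that marks the strand with dUTP. The submitters' processing notes name STAR 2.7.1a and the build hg38. The authors deposited 1 table of raw counts, whole numbers for each gene and library. The sources used here do not give the read counter, its annotation or how it treated strand, so reads shared by paralogs or by genes on opposite strands may be split, dropped or counted in both. Of 58336 identifiers 58216 matched GENCODE release 29, the source of symbols, coordinates and exon lengths.

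Counts were tested with edgeR 4.0.16 (R 4.3.3) by its quasi-likelihood test with TMM factors, robust estimation and filterByExpr at a minimum count of 10 (15673 genes). Benjamini-Hochberg adjustment ran over all of these, with a threshold of 0.05. Each fit used all 6 libraries, and a group of 1 library borrows the spread of the others: 3 classes (3 residual degrees of freedom) for lung cells against control or ITGB4-high, and 4 groups (2 residual degrees of freedom) for the other comparisons. The common biological coefficient of variation was 0.243 and 0.244. The script was tested on simulated data. Total counts were 13647997 and 15298001 for LM2 clones 1 and 3, 15446892 for bleomycin clone 1, 13607953 for ITGB4-high, and 14013264 and 22222121 for control clones 1 and 3. Counting intervals are exact (Clopper-Pearson, 95%) and cover counting error only.

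Same-numbered libraries are the same clone per their titles, which is the basis of the own-clone ratios and of the replicate block. ITGB4-high has no clone number and was placed midway between the clones in the block, a placement chosen after seeing the data. The difference of clone 1 minus clone 3 in the LM2 pair had a correlation of 0.0012 across 15673 genes with that in the control pair. Genes are not independent replicates.

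Genes given in every library were those called in any comparison, those with own-clone log2 ratios of 1 or more or of -1 or less in all lung libraries, the 5 whose LM2 ratios differed most between clones, the 10 with the highest mean CPM, and the 5 highest and 5 lowest in ITGB4-high over control, at a mean CPM of 1 or more. Others were named to describe their role group, and were chosen after their values were seen. The members, lists, rules and alternatives were chosen with earlier results of these data known. Alternatives were RLE factors, no low-count filter, DESeq2 1.42.0, the replicate block and leaving out each library. For the own-clone ratios, RLE factors, library totals alone and a prior count of 0.5 were tried. Some items are not reported here.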

Additional observations from a re-analysis of the deposited data

How the results depend on the processing

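The number of the 45 genes called depended on the tool and on the libraries. For lung cells against control, LM2 against control, bleomycin against control, ITGB4-high against control, lung against ITGB4-high and bleomycin against LM2, the main counts were 2, 0, 0, 0, 1 and 0. Without the low-count filter they were 18, 14, 15, 16, 20 and 1. The shares of the 33274 genes then tested were 6.47%, 5.25%, 4.3%, 8.14%, 4.23% and 0.709%. With DESeq2 the first 5 were 13, 8, 4, 9 and 17, and the last 0. The DESeq2 shares over all genes were 8.15%, 4.13%, 3.7%, 9.68%, 6.93% and 0.357%. RLE factors moved LM2 against control alone, to 1 (0.0893% of all genes). The replicate block gave 2 for LM2 (0.23% of all genes), 1 for bleomycin (0.051%) and 2 for ITGB4-high (2.32%). It gave 0 for lung against ITGB4-high (0%) and changed no other count. With ITGB4-high coded with clone 1, chosen after seeing the data, the block gave 1 for ITGB4-high (0.695%) and 0 for lung against ITGB4-high (0%). Leaving out 1 library gave ranges of 0 to 10, 0 to 26, 0 to 28, 0 to 29, 0 to 22 and 0 to 17, with 0 in every comparison when either control was left out and the highest counts when an LM2 library was. Without an LM2 library the calls over all genes rose too in each comparison. Without LM2 clones 1 and 3 in turn, the shares were 2.5% and 6.55% of all genes for lung cells against control. For lung against ITGB4-high they were 9.1% and 0.239%. In the other comparisons, a fit of 4 groups without an LM2 library takes its spread from the control pair alone. The calls over all genes were then many as well, so the high counts there are not read as particular to the 45. Over all genes, calls for lung cells against control numbered 78, with 2152 without the filter, 1278 with DESeq2, 39 with the block, 0 without either control, 393 without LM2 clone 1, 1012 without LM2 clone 3 and 4 without the bleomycin library.

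Of the log2 fold changes of single genes under these alternatives, 2169 kept their direction and side of the threshold, 74 changed sign without a call in either fit, 352 passed the threshold newly, 11 no longer passed and 4 turned their direction with a call. These 4 were IFIT2 and IFIT3 in bleomycin against LM2 without LM2 clone 1, with ranges over the left-out libraries of -0.55 to 1.14 and -0.64 to 1.43, and IFI44 and IFIT3 in LM2 against control without LM2 clone 3, with ranges of -0.45 to 0.61 and -0.61 to 1.45. The cause was not tested. The medians of the own-clone ratios moved by less than their spread under each scaling tried, and the 18 genes above control in all 3 lung libraries numbered 16 to 19. Counting each pair of lung libraries instead, chosen after seeing the data, gave 26 without LM2 clone 1, 19 without LM2 clone 3 and 18 without the bleomycin library. Library totals alone lowered the median of all genes in LM2 clone 1 by 0.12, so ratios near 0 have no firm sign there. Depth limits RSAD2, EPSTI1, MX1, MX2, HERC5, ISG15, ISG20, IFI27, IRF7, IRF9, USP18 and RTP4, which had under 100 counts in 4 or more libraries, and OAS1 and CMPK2, which stood at or under the floor of 3 counts.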

Other observations

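For some sensor and antigen-processing genes outside the 47, lung or ITGB4-high values did not overlap the controls. Of all genes, 23.9% were above their own control in all 3 lung libraries. ITGB4-high was below both controls for 45.2% of all genes and above both for 43.6%. The genes below are named after their values were seen, and none passed edgeR's test at an adjusted p of 0.05. DDX58, the RNA sensor RIG-I, had 31.7 and 27.6 CPM in LM2 lung clones 1 and 3, 42.8 CPM in the bleomycin library, 16.6 CPM in ITGB4-high cells, and 16.7 and 16.3 CPM in control clones 1 and 3. CGAS, the sensor of cytosolic DNA, had 39.9 and 39.2 CPM in LM2 lung clones 1 and 3, 41.9 CPM in the bleomycin library, 47.7 CPM in ITGB4-high cells, and 24.2 and 25.7 CPM in control clones 1 and 3. All lung libraries lay above both controls for these genes, and CGAS was highest in ITGB4-high cells. TAP1, the peptide transporter of antigen presentation, had 99.9 and 81.1 CPM in LM2 lung clones 1 and 3, 90.5 CPM in the bleomycin library, 54.2 CPM in ITGB4-high cells, and 54.6 and 52.9 CPM in control clones 1 and 3. PSMB9, an immunoproteasome subunit, had 28.5 and 29.1 CPM in LM2 lung clones 1 and 3, 29.6 CPM in the bleomycin library, 13.9 CPM in ITGB4-high cells, and 19.0 and 17.8 CPM in control clones 1 and 3. For both, the lung values lay above all 3 cultured libraries. TLR3, the endosomal sensor of double-stranded RNA, had 34.2 and 33.7 CPM in LM2 lung clones 1 and 3, 21.0 CPM in the bleomycin library, 7.59 CPM in ITGB4-high cells, and 31.4 and 35.4 CPM in control clones 1 and 3. TMEM173, or STING, had 10.1 and 18.1 CPM in LM2 lung clones 1 and 3, 17.8 CPM in the bleomycin library, 3.36 CPM in ITGB4-high cells, and 19.4 and 23.0 CPM in control clones 1 and 3. In ITGB4-high cells TLR3 and TMEM173 were below every other library, while the lung values of TLR3 overlapped the controls. In the same lists DHX58 and PSME2 also overlapped between lung and control cells.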
